A study of Homo sapiens with 19 samples.

Results

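The genes described here are 10 pluripotency transcription factors and RNA binders: POU5F1, NANOG, SOX2, SALL4, PRDM14 and ZFP42 as the transcription factors, and LIN28A, LIN28B, L1TD1 and DPPA4 as the RNA binders and the chromatin-associated factor. They were chosen by name, and their annotated introns were looked up in every junction table of the series. Of 22760 genes with spliced reads, 9 were members, with 58 annotated introns, 51 of which carried reads. SOX2 is an intronless gene (chromosome 3, 181711924 to 181714436) and yields no annotated junction read, so it was not measured here. All coordinates are GRCh38.

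The series counted reads across splice junctions in 19 libraries of 3 human lines. The melanoma line A375 gave 1 library of RNA labelled WT (called total here), 1 of nuclear RNA and 1 of cytoplasmic RNA. HEK293, which derives from human embryonic kidney, and the embryonic stem cell line HUES66, both labelled WT as well, gave 1 each. The other 14 libraries were HUES66 cells given 1 µg/ml doxycycline for 24, 48 or 96 hr. They comprise 3 controls (genotype labelled WT), 3 libraries with knockdown of all RBFOX2 (total KD), 4 with knockdown of the N-short isoforms (N-short KD) and 4 with knockdown of the N-long isoforms (N-long KD). RBFOX2 is a splicing regulator, and the series title names the RNA-cleaving enzyme Cas13d as the tool. The labels put these libraries in 4 sets: 24 hr replicate 1 (here 24 hr set 1, with no library titled as control), 24 hr replicate 2 (24 hr set 2, with no total KD), 48 hr and 96 hr. Within a set each group has at most 1 library, and all knockdowns were in 1 stem cell line. No label says that libraries came from separate cultures, so p-values of gene levels measure the spread between these libraries. The edgeR p-values for splicing rest mainly on read counts, as described below. The wild-type HUES66 library has the controls' word in its library name, together with the prefix of 24 hr set 1, and whether it served as that set's control is not stated.

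POU5F1, SOX2 and NANOG form the core circuit of embryonic stem cells, in which POU5F1 and SOX2 bind side by side on DNA and all 3 regulate each other's genes. SALL4 and PRDM14 act beside them, and ZFP42 is a classic marker of the undifferentiated state. LIN28A and LIN28B bind the precursors of let-7 microRNAs and block their maturation. L1TD1 is an RNA-binding protein derived from a transposon and partners with LIN28A, and DPPA4 associates with active chromatin.

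The junctions on which the isoform results turn are printed first, from the GENCODE 29 transcripts, as 15 bases on each side of the joined exons. SALL4 has a long form (A) and a short form (B), which splice the second exon to the same next exon from 2 donors. In SALL4 the capitals mark the end of the second exon, and the lower case the shared next exon (chromosome 20, minus strand).
SALL4 long form A, exon end at 51790022: GCACTGAGATGGAAGgtcggagcagtctcc
SALL4 short form B, exon end at 51791333: TCTACAAGCACAAGTgtcggagcagtctcc
The short form removes 1311 coding bases (437 codons, in frame), which shortens the coding sequence from 3159 to 1848 bases. In DPPA4 (chromosome 3, minus strand) the lower case is the shared end of the first exon at 109337464, and the capitals the start of the second exon from either acceptor, both in coding sequence. The downstream acceptor removes 73 bases, which is no multiple of 3.
DPPA4 upstream acceptor, exon start at 109333993: gcaaaaggcaaggagTGGACCTCCACAGAG
DPPA4 downstream acceptor, exon start at 109333920: gcaaaaggcaaggagGAACATCAGCAAAGA
The POU5F1 form A joins the coding first exon, ending at 31170216 (capitals), to the second exon starting at 31166047 (chromosome 6, minus strand).
POU5F1 form A: CAAAACCCGGAGGAGtcccaggacatcaaa
The last exon of ZFP42 (chromosome 4, plus strand) is shown from 188002708 to 188002737, as the transcript ZFP42-203 holds it. The capitals, at 188002710 to 188002712, are the 3 bases between 2 neighbouring acceptors: the annotated exon starts after them, and an exon start that GENCODE 29 lacks includes them.
ZFP42 last exon: agCAGgtgtttgctgaagacagcttactca

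LIN28B (chromosome 6, plus strand) has 2 first exons with different reads in the lines. The RefSeq promoter windows (GRCh38.p14) are shown only up to the base before each GENCODE first exon, because they are the sequences that separate the choices compared below. The upstream window covers chr6:104940715-104940865 and the downstream window chr6:104956857-104957047. No capitals are used in them.
LIN28B upstream start: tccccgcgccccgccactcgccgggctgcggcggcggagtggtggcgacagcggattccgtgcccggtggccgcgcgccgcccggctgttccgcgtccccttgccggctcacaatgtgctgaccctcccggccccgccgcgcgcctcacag
LIN28B downstream start: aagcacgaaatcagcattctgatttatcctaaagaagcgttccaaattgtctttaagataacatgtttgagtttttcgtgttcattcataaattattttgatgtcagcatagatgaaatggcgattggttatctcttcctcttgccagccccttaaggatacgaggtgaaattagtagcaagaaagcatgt
The upstream window was 78.8% G or C over 151 bases and the downstream window 36.1% over 191 bases. Of the 9 measured members and SOX2, 6 matched the RefSeq promoter table by symbol, with 7 windows. The composite motif of POU5F1 and SOX2 (searched on either strand) occurred in 1 of these 7 windows, that of NANOG, and in 11 of all 35116 windows of 300 bases (0.0313%). The POU5F1 octamer ATTTGCAT, whose letters after the first are also the start of the composite, was in 0 of the 7 and in 1.77% of all. A match is a run of letters and was not tied to any binding data. NANOG's composite match lies 120 bases before its RefSeq start and is shown in capitals within chr12:7789273-7789302, plus strand.
NANOG promoter: gcagctactTTTGCATTACAAtggccttgg

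The first comparison asked in which lines the members were expressed. Spliced reads of POU5F1, NANOG, SALL4, PRDM14, LIN28A, L1TD1 and DPPA4 were abundant in HUES66 and at 0 to 9 reads in each HEK293 or A375 library. LIN28B was the exception, at a similar level in HEK293 and at a lower level in A375, and ZFP42 gave a few reads in A375. Levels here are annotated junction reads per 1000000 junction reads of the library (CPM), and intervals for single libraries are 95% intervals that cover counting error only. With 1 library per line, nothing was tested between lines.

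Among the transcription factors, POU5F1 had 1020 CPM in wild-type HUES66 (28494 reads), against 0.521 CPM in HEK293 and 0.594 CPM in A375 total RNA, which were 5 reads each. The ratio of HUES66 to HEK293 was 1959 (exact interval 840 to 6035). NANOG had 744 reads in HUES66 and 0 in HEK293 and in all A375 libraries. Set against the 3 reads that a count of 0 allows, NANOG was at least 85.3-fold higher in HUES66 than in HEK293 and at least 74.7-fold higher than in A375 total RNA. SALL4 had 1938 reads in HUES66 and 1 in each of HEK293 and A375 total RNA. PRDM14, a regulator that holds back differentiation genes, had 1408 reads in HUES66, 1 in HEK293 and 0 in A375 total RNA. ZFP42, a zinc finger protein, had 908 reads in HUES66 and 0 in HEK293, at least 104-fold apart. In A375 ZFP42 gave 7 reads (0.832 CPM) in total RNA, with 11 nuclear reads (1.69 CPM) and 23 cytoplasmic reads (1.03 CPM). HUES66 exceeded A375 total RNA by 39.1-fold for ZFP42 (18.9 to 97.4).

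Among the RNA binders, LIN28A had 8561 reads (306 CPM) in HUES66, 0 in HEK293 and 1 in A375 total RNA. L1TD1 had 4958 reads in HUES66 and 0 in HEK293 and in all A375 libraries, at least 568-fold above HEK293 and at least 498-fold above A375 total RNA. DPPA4 had 13617 reads in HUES66, 2 in HEK293 and 0 in A375 total RNA. LIN28B stood apart from its paralog LIN28A: it had 33.9 CPM in HUES66 (947 reads), 29.4 in HEK293 (282 reads) and 3.45 in A375 total RNA (29 reads). HUES66 exceeded A375 by 9.83-fold for LIN28B (6.80 to 14.8) and HEK293 exceeded A375 by 8.52-fold (5.80 to 13.0). HUES66 and HEK293 were 1.15-fold apart (1.01 to 1.32), a log2 ratio of 0.21 that became 0.43 when libraries were scaled with TMM factors (normalisation factors of edgeR) instead of total junction reads.

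**Figure D1:**
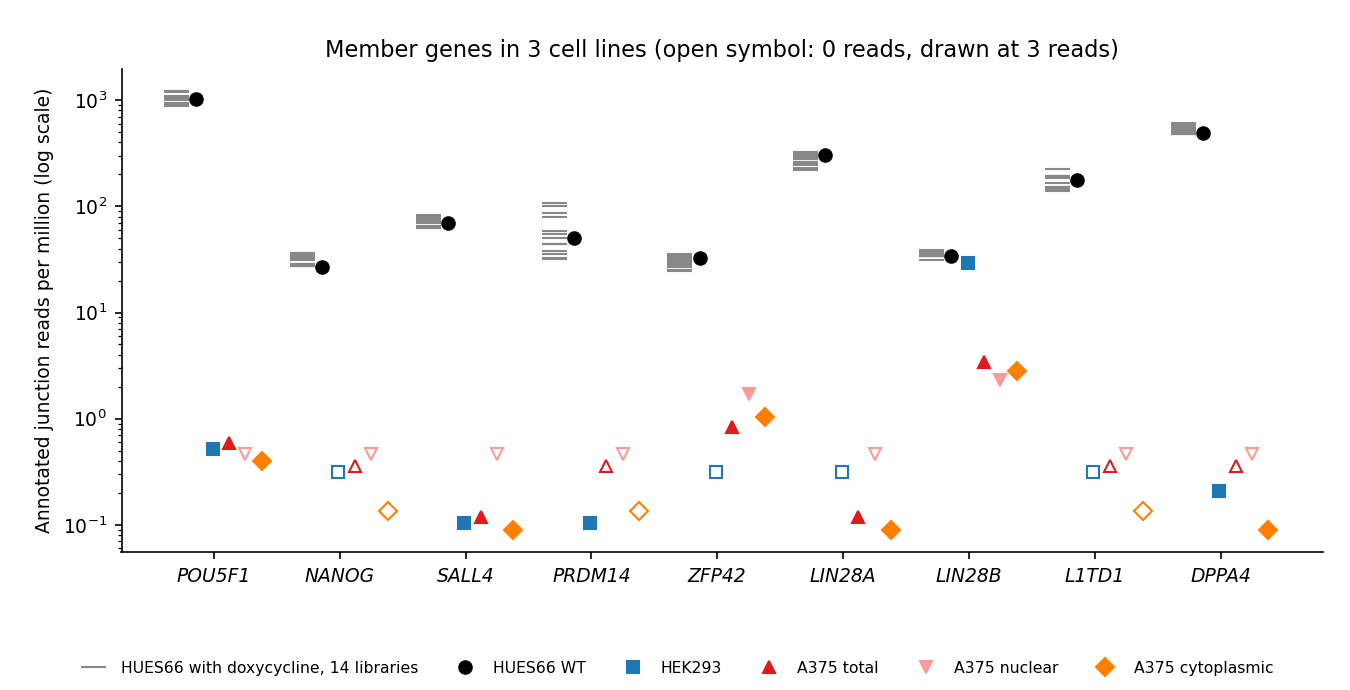
Annotated junction reads in CPM (log scale) of the 9 measured members, with 1 symbol per library; grey dashes are the 14 doxycycline-treated HUES66 libraries, and open symbols mark 0 reads, drawn at the level of 3 reads. LIN28B in HEK293 (29.4 CPM) lies near HUES66 (33.9 CPM), and every other member in HEK293 or A375 lies at or below 1.69 CPM or at 0 reads.

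The A375 fractions held enough reads of 2 members for a ratio. The cytoplasmic to nuclear ratio of LIN28B was 1.22 (0.688 to 2.31) and that of ZFP42 was 0.608 (0.285 to 1.38), and both intervals include equal levels. For the other members the 2 fractions held 0 to 9 reads and a difference was not detectable at this depth.

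The 2 LIN28B first exons differed between the lines. In wild-type HUES66, 125 reads entered the shared exon by introns ending at 104958098. Of these, 62 came from the upstream start by way of its own second exon, or 49.6% (Wilson interval 41% to 58.2%). In HEK293, 0 of 63 did, which allows a share of up to 4.76%, and in A375 total RNA 0 of 8. The nuclear and cytoplasmic A375 fractions gave 0 of 4 and 0 of 13. So few A375 reads allow upstream shares of up to 37.5% (total), 75% (nuclear) and 23.1% (cytoplasmic). All HEK293 and A375 reads seen at this site came from the first exon that follows the window of 36.1% G or C. HUES66 reads came from both. The intron that joins the upstream first exon to its second exon, from 104941013 on, had 50 reads in HUES66 and 0 in HEK293, and the 2 introns that only LIN28B-202 uses had 0 reads in all libraries.

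Levels of different genes were compared per intron of the main transcript, as mean CPM per intron. In wild-type HUES66 the order was POU5F1 (255), LIN28A (101), DPPA4 (80.3), L1TD1 (59.2), SALL4 (21.0), ZFP42 (12.9), LIN28B (9.96), NANOG (8.41) and PRDM14 (7.19). Over the 14 doxycycline libraries POU5F1 ranged from 218 to 305 CPM per intron, above every other member. LIN28A (72.2 to 106) overlapped DPPA4 (78.9 to 101), so these neighbours did not separate beyond their spread. L1TD1 (46.8 to 75.1) lay below DPPA4 in all 14 libraries, and its range overlapped that of LIN28A only at the ends. SALL4 (19.1 to 25.5) lay below these and above ZFP42 (10.6 to 13.8), LIN28B (9.17 to 11.7) and NANOG (8.58 to 11.7), while PRDM14 (4.55 to 15.4) spanned the lowest 3. These values count annotated introns only. In wild-type HUES66, ZFP42 had 1004 reads of unannotated introns next to 908 annotated reads. Its place in this order, also against SALL4, is therefore not settled.

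NANOG's level is uncertain because its introns disagreed: the first intron of the main transcript held 663 reads in wild-type HUES66 and the next 2 held 27 and 15. NANOG and POU5F1 have near-identical processed copies elsewhere in the genome, and how reads that match several places were counted is not given in the sources used here. The part of these copies in the uneven reads was not tested. For POU5F1 the intron values ranged only from 179 to 285 CPM in wild-type HUES66.

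The lines were checked against defining markers. The 6 HUES66 markers summed to 1443 to 2807 CPM over the 15 HUES66 libraries, with FOXD3 (an intronless gene) at 0, and to 20.1 CPM in HEK293 and 4.87 CPM in A375. The 16 markers of differentiated cells summed to 1.51 to 6.62 CPM in HUES66, with 6 to 10 of them at 0 in a library. The 8 melanoma markers summed to 157 CPM in A375 total RNA, with MLANA and TYR at 0. They summed to 36.7 to 72.0 CPM in the HUES66 libraries and 9.06 CPM in HEK293. The 7 kidney markers summed to 44.0 CPM in HEK293, with PAX8 at 0, to 22.2 CPM in A375 total RNA and to 2.42 to 4.22 CPM in HUES66. These 2 lists thus set their lines apart less than the HUES66 markers did. RBFOX2, the targeted gene, had 119 to 126 CPM in the 3 controls, 48.2 to 78.7 in total KD, 107 to 120 in N-short KD and 72.7 to 87.6 where the N-long isoforms were targeted.

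The next comparisons asked whether lowering RBFOX2 or its isoforms changed the members. No member passed the test in any knockdown: POU5F1, NANOG, SALL4, PRDM14, ZFP42, LIN28A, LIN28B, L1TD1 and DPPA4 all stayed above an adjusted p of 0.05. With edgeR's quasi-likelihood test and Benjamini-Hochberg adjustment over all genes, 0 of 9 members were called in total KD, where 2.2% of 13628 genes were called. Of these genes 1.01% were higher and 1.19% lower. The count was also 0 of 9 in N-short KD, with 0% of genes called, and in N-long KD, with 0.022% (0.00734% higher, 0.0147% lower). In the contrast of the 2 isoform knockdowns it was 0 of 9 with 0.0147% of genes called, 0.00734% in each direction. At an unadjusted p under 0.05 the counts of members were 1, 1, 0 and 1, and DESeq2 also called 0 in each of the 4 contrasts. With so few genes called anywhere, the count of 0 does not set the members apart from other genes.

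Fitted changes of the members were small, with a median absolute log2 fold change of 0.035 in total KD against 0.093 over all genes tested. In N-short KD the median was 0.050 against 0.063, and in N-long KD 0.037 against 0.064. POU5F1 had a fitted log2 fold change of -0.04 in total KD (95% interval -0.11 to 0.03), -0.02 in N-short KD (-0.08 to 0.05) and 0.03 (-0.04 to 0.09) for N-long KD. For NANOG the fitted values were 0.11 in total KD (-0.05 to 0.28), 0.04 in N-short KD (-0.11 to 0.19) and 0.07 (-0.07 to 0.22) for N-long KD. These intervals come from the fit's standard errors and bound the changes that these libraries allow. Within sets, member levels stood at 90.8% to 121% of control in total KD (18 ratios), at 79.9% to 122% in N-short KD (27 ratios) and at 87.2% to 125% in N-long KD (27 ratios).

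L1TD1 gave the lowest p in total KD. It had 152 CPM in the 48 hr control and 166 in total KD, and 195 and 225 at 96 hr, so total KD stood at 109% (exact interval of the ratio 103% to 116%) and 116% (110% to 122%) of its control. The fitted log2 fold change of L1TD1 was 0.14 (SE 0.0473) with an adjusted p of 0.145 in edgeR's quasi-likelihood test. Without the total KD library of 24 hr set 1, which has no control in its set, the adjusted p by edgeR was 0.00815 (log2 fold change 0.19). With wild-type HUES66 taken as that set's control the adjusted p by edgeR was 0.0274 (0.15), and without any 1 of the other 5 libraries of the contrast it was 0.131 to 0.587. Over all alternatives it ran from 0.00815 to 0.587.

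PRDM14 had the largest fitted change in N-short KD. Its level was 32.7, 37.8 and 80.1 CPM in N-short KD and 32.0, 44.6 and 100 CPM in the controls of 24 hr set 2, 48 hr and 96 hr. N-short KD was thus at 102%, 84.7% and 79.9% of control, lower in 2 of 3 sets. The fitted log2 fold change was -0.18 (SE 0.0772, adjusted p 0.998 by edgeR). Set against each other, the isoform knockdowns had more PRDM14 with N-long KD in 4 of 4 sets, by ratios of 108% to 118%, with a fitted difference of 0.15 (SE 0.0691, adjusted p 0.938 by edgeR). Neither value passed the test.

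**Figure D2:**
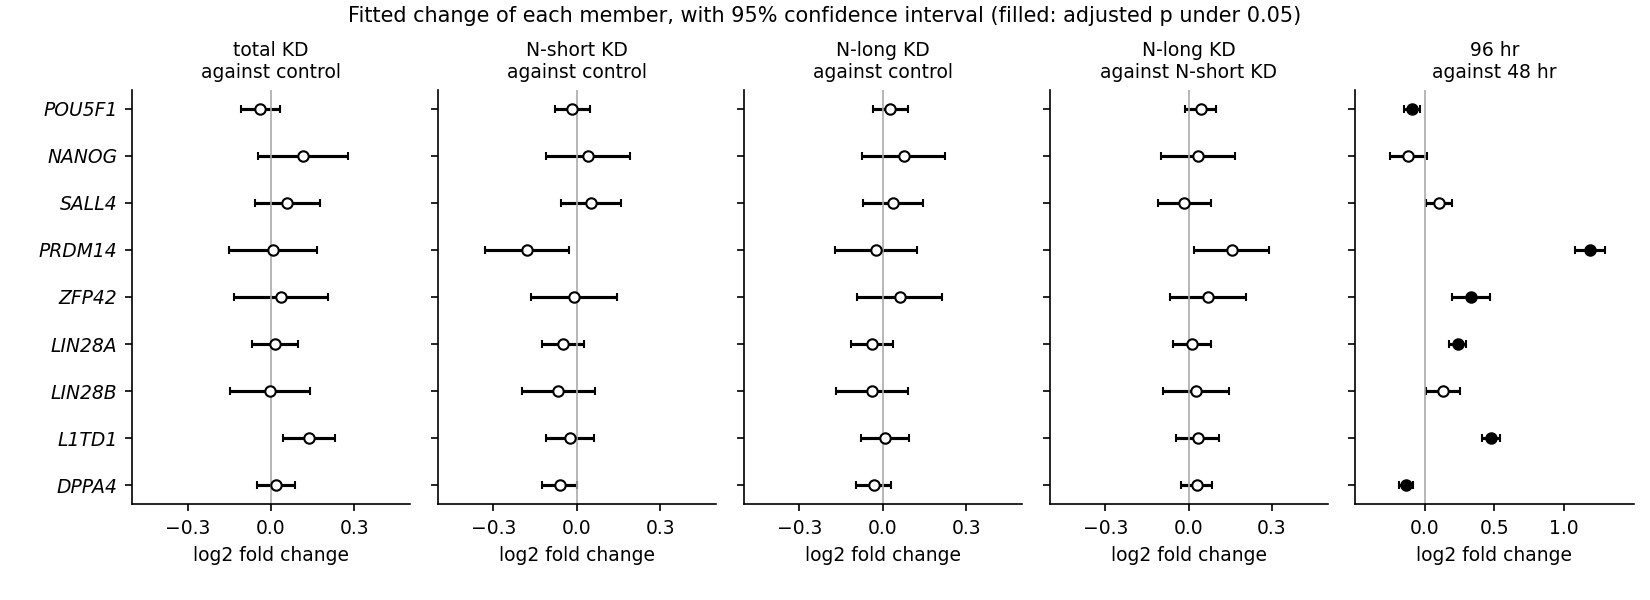
Fitted log2 fold change of 9 members (points) with 95% confidence intervals (bars) in 5 comparisons; filled points have an adjusted p under 0.05. All points of the 4 knockdown comparisons are open, and 6 of 9 are filled in the comparison of 96 hr with 48 hr, where the axis is wider.

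Other genes of these pathways were taken from lists. Over all genes, 1.01% were higher and 1.19% lower in total KD, and nothing particular to a list is read from the counts below. Of 21 tested other genes of the primed pluripotent state, 2 were higher in total KD: TDGF1, a co-receptor of NODAL signals, by a log2 fold change of 0.17 (adjusted p 0.026 by edgeR), and DNMT3B, a DNA methyltransferase, by 0.15 (adjusted p 0.0493). Of 6 tested early lineage genes 1 was lower in total KD, VIM (an intermediate filament gene), by -0.37 (adjusted p 0.00306). None of the 10 tested naive pluripotency genes and none of the 18 tested genes of the LIN28 and let-7 axis was called in total KD, and no gene of these 4 lists was called in the other 3 knockdown contrasts. At an unadjusted p under 0.05, total KD gave 7 primed, 1 naive, 2 LIN28 axis and 1 lineage gene. The same counts were 3, 0, 0 and 0 in N-short KD, 0, 0, 2 and 0 for N-long KD, and 7, 1, 3 and 2 for the contrast of the isoform knockdowns. Over all 13628 genes that p was reached by 1767 in total KD, 537 in N-short KD, 594 for N-long KD and 693 in the contrast of the isoform knockdowns.

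Splice choices of the members were compared next, since RBFOX2 regulates splicing. A choice is 1 of the introns that share a donor or an acceptor, measured as its percent of the reads at that site. Of 11 member choices, 9 had a mean of at least 20 reads at the site and a pooled share of 2% to 98% and were tested, in NANOG, SALL4, PRDM14, ZFP42, LIN28B and DPPA4. The SALL4 forms A and B each count among the 9, here and in the comparison of times, although their shares nearly mirror each other. By edgeR, 0 of 9 were called in total KD, where 0.791% of all 23770 choices were called. The count was 0 of 9 as well in N-short KD (0.0168% of all called), for N-long KD (0.332%) and in the contrast of the isoform knockdowns (0.257%). At an unadjusted p under 0.05 the counts were 1, 0, 0 and 0, and limma on log2 ratios called 0 in each. The unadjusted counts were not set against those of all choices, so nothing is read from them.

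The short form of SALL4 was the minor form in every HUES66 library. In the controls its share of reads at the shared acceptor was 14.6% at 24 hr set 2, 10.1% at 48 hr and 11.6% at 96 hr, and over all 14 libraries it ranged from 8.97% to 14.6%, with 10.9% in the pooled reads. Wild-type HUES66 had 88 of 678 reads, or 13.0% (Wilson interval 10.7% to 15.7%). Its log2 odds ratios against control lay between -0.25 and -0.14 in the 3 knockdowns, and none passed the test (lowest adjusted p 0.988 by edgeR). The authors' deposited table of each knockdown and time gives this event too, with control minus knockdown differences in inclusion of -0.039 to 0.015 on a scale from -1 to 1. Over their 9 tables the authors' deposited tables list 312 events in 7 members, with 0 at an adjusted p under 0.05, 8 at an unadjusted p under 0.05 and a lowest adjusted p of 0.503.

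Reads entering the second exon of POU5F1 came almost entirely from the first exon of form A. In wild-type HUES66, 5 of 7602 reads at the acceptor of the second exon came from the donor at 31166533 that POU5F1-205 and POU5F1-207 use, 0.0658% (Wilson interval 0.0281% to 0.154%), and the 14 doxycycline libraries held 0 to 3 such reads each, 12 of 47801 in all. The first intron of POU5F1-202 and both introns of POU5F1-209 had 0 reads in every library. The share of the donor at 31166533 lies below the 2% minimum and was not tested. POU5F1-203, POU5F1-204, POU5F1-206 and POU5F1-208 hold only introns that form A also holds. Junction reads do not tell them apart from form A, so they were not measured.

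LIN28B gave the lowest p among the splice choices in knockdowns. Its upstream start made up 48.6% of reads in the 48 hr control and 21.4% in total KD, and 66.2% and 49.1% at 96 hr. The log2 odds ratio was -1.02 (SE 0.367, adjusted p 0.318 by edgeR), which did not pass the test, with 55 to 98 reads at the site in these 4 libraries. Total KD was lower than control in both sets that hold both. In 24 hr set 1, which has no titled control, total KD had 52.6% (40 of 76 reads), next to 52.5% in N-short KD and above the 49.6% of wild-type HUES66.

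The minor annotated choices of the other members were low. The NANOG-203 acceptor took 1.43% to 5.03% over the 14 libraries, and the PRDM14-202 start held 0 to 5 reads per library. The acceptor that only DPPA4-202 uses, at 109329082, took 0.373% to 0.956% over the 14 libraries and was not tested. The extra intron of LIN28A-201 near the end of the gene held 86 reads in wild-type HUES66, against 4474 in the intron before it.

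The last comparison set 96 hr against 48 hr of doxycycline, with the 4 knockdown groups as blocks. PRDM14 rose most, L1TD1, ZFP42 and LIN28A rose by less, and DPPA4 and POU5F1 fell slightly. By edgeR's quasi-likelihood test 6 of 9 members were called (66.7%), 4 higher and 2 lower, where 59.2% of 13415 genes were called, 29.2% higher and 29.9% lower. The members' share is near that background, and their median absolute log2 fold change of 0.14 was below the 0.28 of all genes. Each time is a single set of libraries, so time and library set cannot be told apart.

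PRDM14 had 44.6, 44.2, 37.8 and 44.5 CPM at 48 hr (control, total KD, N-short KD, N-long KD). At 96 hr it had 100, 109, 80.1 and 87.4 CPM in the same order. All 96 hr libraries were above all 48 hr libraries, with a fitted log2 fold change of 1.19 (SE 0.0535, adjusted p 1.45e-15 by edgeR). Each of the 7 introns of PRDM14-201 was higher at 96 hr without overlap, by 1.74-fold to 2.33-fold. These introns belong to 1 gene and share its change in level. The share of all genes or annotated introns without overlap was not counted, here or for the members below.

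L1TD1 had 140 to 166 CPM at 48 hr and 193 to 225 CPM at 96 hr, without overlap (log2 fold change 0.48, SE 0.0330, adjusted p 5.36e-12 by edgeR). LIN28A had 254 to 264 CPM at 48 hr and 282 to 314 CPM at 96 hr, also without overlap (0.24, adjusted p 6.54e-07). The partners L1TD1 and LIN28A were therefore both higher, by unequal amounts. ZFP42 had 24.5 to 27.2 CPM at 48 hr and 28.1 to 33.9 CPM at 96 hr, without overlap (0.33, adjusted p 0.0003 by edgeR). Its introns differed: the last annotated intron had a mean of 16.2 CPM at 48 hr and 16.3 CPM at 96 hr, and neither of the 2 introns of ZFP42-202 was free of overlap. These means leave out the unannotated acceptor 3 bases upstream, described below. It held 164 to 181 reads per library at 48 hr and 250 to 298 at 96 hr. The ZFP42 intron into the annotated extra exon held 28 to 49 reads at 48 hr and 70 to 101 reads at 96 hr.

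DPPA4 had 557 to 608 CPM at 48 hr and 500 to 534 CPM at 96 hr, without overlap (log2 fold change -0.14, SE 0.0258, adjusted p 6.5e-05 by edgeR). POU5F1 had 1192, 1082, 1205 and 1219 CPM at 48 hr in that order, and 1037, 1081, 1057 and 1058 CPM at 96 hr. The total KD libraries stood at 1082 and 1081 CPM, so the groups overlap. Its fitted log2 fold change was -0.09 (SE 0.0288, adjusted p 0.00709 by edgeR), and the adjusted p rose to 0.186 with DESeq2 and to 0.0645 to 0.0853 by edgeR without any 1 of the 6 libraries other than total KD. NANOG (-0.12, adjusted p 0.136), SALL4 (0.10, 0.0651) and LIN28B (0.13, 0.0783) did not pass the test.

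**Figure D3:**
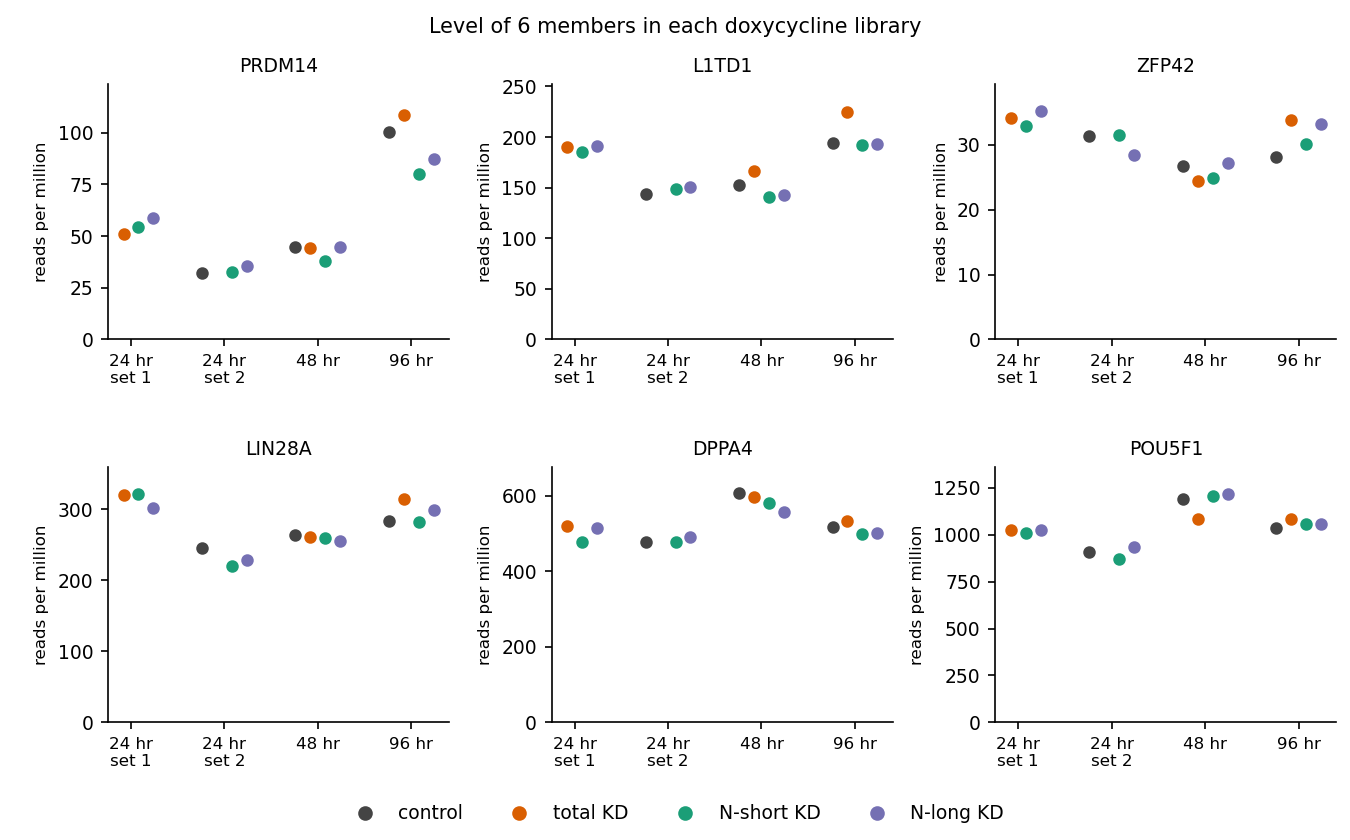
Annotated junction reads in CPM of 6 members in the 14 doxycycline libraries, by set and coloured by knockdown; each point is 1 library and axes start at 0. PRDM14 lies at 37.8 to 44.6 CPM at 48 hr and at 80.1 to 109 CPM at 96 hr, and the 24 hr sets differ from each other.

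The 2 sets of 24 hr differed as well, at the same time of treatment. PRDM14 had 50.8 to 58.7 CPM in 24 hr set 1 and 32.0 to 35.6 CPM in set 2. LIN28A had 302 to 321 CPM in set 1 and 219 to 246 in set 2, and L1TD1 had 185 to 191 and 143 to 150. In each of these 3 genes the sets did not overlap, although the time was the same. POU5F1 (1008 to 1026 CPM in set 1, 872 to 932 in set 2) did not overlap either. The same held for SALL4 (72.1 to 79.4, 62.8 to 64.6) and ZFP42 (32.9 to 35.3, 28.5 to 31.6). LIN28B went the other way without overlap (31.5 to 34.5, 37.8 to 38.6), and NANOG and DPPA4 overlapped. The share of all genes without overlap between these sets was not counted. Wild-type HUES66, which had no doxycycline in its labels, had 50.4 CPM of PRDM14, 306 of LIN28A and 177 of L1TD1.

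Other pluripotency genes changed in both directions over the same interval, in which 29.2% of all genes were higher and 29.9% lower, so the counts below are not read as particular to a list. Of 21 tested primed genes 11 were higher and 7 lower, including OTX2, a transcription factor of the primed state (0.92, adjusted p 1.32e-05 by edgeR), DNMT3B (0.81, adjusted p 9.19e-18), POLR3G, an RNA polymerase III subunit (0.67, adjusted p 1.13e-12), and GDF3, a TGF-beta family ligand (0.58, adjusted p 0.0319). Of 10 tested naive genes 3 were higher and 2 lower: DPPA3 (2.04, adjusted p 0.000502, with 1 to 5 reads at 48 hr and 8 to 16 at 96 hr) and TFE3 (0.20, adjusted p 0.00166) were higher, and TFCP2L1 (-0.71, adjusted p 5.95e-05) and DPPA2, the paralog and partner of DPPA4 (-0.55, adjusted p 0.000142), were lower. Of 18 tested genes of the LIN28 and let-7 axis 10 were higher and 4 lower, among them MYCN (0.66, adjusted p 2.77e-05) and MYC (0.59, adjusted p 5.1e-05), both growth regulators, and the RNA-binding proteins IGF2BP2 (-0.54, adjusted p 9.29e-14) and IGF2BP3 (-0.54, adjusted p 6.35e-14). Of 11 tested relatives of the members 7 were higher and 0 lower, led by SALL3 (0.48, adjusted p 0.0214) and SALL2 (0.42, adjusted p 2.37e-05), paralogs of SALL4, with PRDM10 (0.28, adjusted p 0.00083) and PRDM4 (0.26, adjusted p 0.00946). Of 6 tested early lineage genes VIM (2.04, adjusted p 4.22e-19) and NES (0.19, adjusted p 0.0143) were higher and CER1 (-1.004, adjusted p 0.000589) and KRT7 (-0.57, adjusted p 0.0142) lower.

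The summed HUES66 markers were higher at 96 hr. These 6 markers summed to 1443 to 1677 CPM at 48 hr and 2121 to 2807 CPM at 96 hr. DNMT3B, 1 of the 6, rose by a log2 fold change of 0.81 and alone had 1484 CPM in wild-type HUES66. The 16 markers of differentiated cells summed to 5.00 to 6.62 CPM at 48 hr, with 7 to 9 at 0. At 96 hr they summed to 2.7 to 5.44 CPM, with 6 to 10 at 0, so the times overlapped. The part of the markers in the members' changes was not tested. In bulk RNA, fewer cells of a type and less RNA per cell cannot be told apart.

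Splice choices of 4 members differed between 48 hr and 96 hr by edgeR, out of 9 tested, where 12% of all 23944 choices were called. The downstream acceptor of DPPA4 rose, and so did the extra exon of ZFP42 and the upstream start of LIN28B, while the downstream first exon of SALL4 fell. The tool mattered here: limma on log2 ratios called 0 of 9, as well as 0 of all choices (5263 of them had an unadjusted p under 0.05), so the 4 calls rest on edgeR. The edgeR standard errors of these 4 choices lay not far above the counting error of their reads. The edgeR p-values of choices therefore take little account of the spread between libraries.

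The downstream acceptor of DPPA4 took 4.10% ± 1.09 (SD, n = 4) of the reads from the first exon at 48 hr and 12% ± 3.14 at 96 hr. The lowest 96 hr library (8.79%) was above the highest 48 hr library (5.17%). The log2 odds ratio was 1.67 (SE 0.202, adjusted p 4.78e-14 by edgeR, and 0.0928 by limma). The 24 hr sets had 11.5% ± 1.13 (n = 3) in set 1 and 7.94% ± 1.57 (n = 3) in set 2.

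The downstream first exon of SALL4, which starts the transcript SALL4-204 and lies within SALL4-205, took 22.5% ± 0.434 (SD, n = 4) of the reads entering the second exon at 48 hr and 11.4% ± 1.62 at 96 hr. The 48 hr libraries ranged from 21.9% to 22.9% and the 96 hr libraries from 9.01% to 12.4%. The log2 odds ratio was -1.16 (SE 0.193, adjusted p 1.65e-07 by edgeR, and 0.121 by limma). The SALL4 level itself did not pass the test. Between the SALL4 forms A and B the log2 odds ratio was 0.23 (SE 0.195, adjusted p 0.519), with the short form at 9.78% ± 0.677 at 48 hr and 11.3% ± 0.371 at 96 hr. The 96 hr libraries were all above the 48 hr libraries, from 10.7% against 10.6%, but the difference did not pass the test.

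ZFP42 splices its first exon either to an annotated extra exon, by the intron ending at 187999107, or past it. The extra exon took 29.4% ± 6.63 (SD, n = 4) at 48 hr and 44.0% ± 4.26 at 96 hr, with the highest 48 hr library at 38.3% and the lowest 96 hr library at 38.7%. The log2 odds ratio was 0.93 (SE 0.199, adjusted p 9.91e-05 by edgeR, and 0.176 by limma). The 24 hr sets of this choice did not overlap either, at 47.4% to 48.1% in set 1 and 34.3% to 38.3% in set 2. The upstream start of LIN28B took 36.7% ± 11.8 at 48 hr and 57.0% ± 7.04 at 96 hr (log2 odds ratio 1.23, SE 0.303, adjusted p 0.00118 by edgeR, and 0.126 by limma). Its lowest 96 hr library (49.1%) was just above its highest 48 hr library (48.6%), at 55 to 98 reads per library. For LIN28B the 24 hr sets overlapped, at 37.1% to 52.6% in set 1 and 30.8% to 46.7% in set 2. The other first exon of DPPA4, that of DPPA4-204, had 3.17% ± 0.583 at 48 hr and 5.10% ± 1.55 at 96 hr and did not pass the test (0.68, adjusted p 0.0708 by edgeR).

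**Figure D4:**
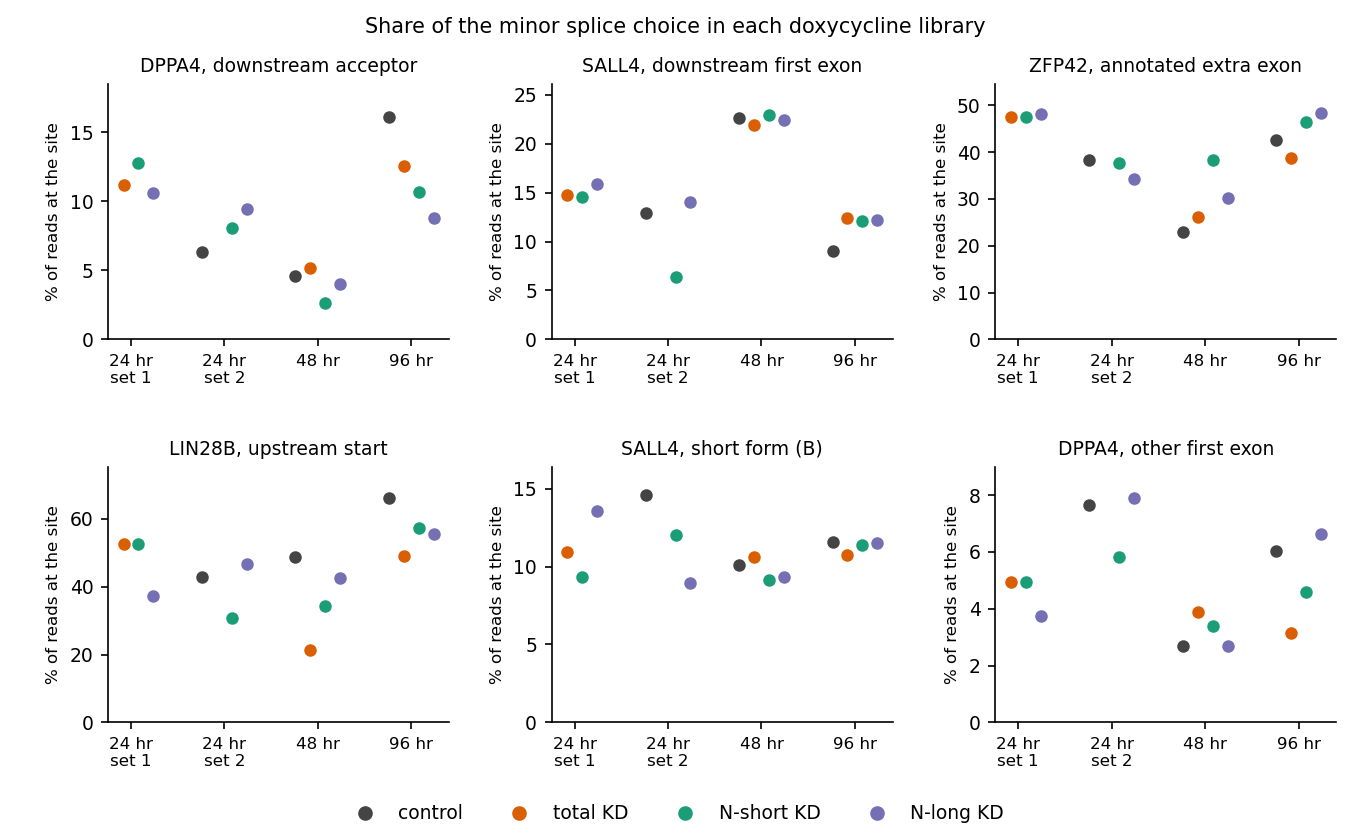
Percent of reads at the site that took the named splice choice in each of the 14 doxycycline libraries, by set and coloured by knockdown, with axes from 0. The downstream first exon of SALL4 lies at 21.9% to 22.9% at 48 hr and at 9.01% to 12.4% at 96 hr, and the SALL4 short form at 9.15% to 10.6% and at 10.7% to 11.6%.

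Introns that GENCODE 29 does not hold were read in several members. Of 595 such introns inside the bounds of the 10 genes, 10 had at least 200 reads over the 19 libraries: 3 in ZFP42, 4 in L1TD1 and 3 in DPPA4. This read limit was chosen after the data were seen. Unannotated introns took 43.6% to 56.1% of the ZFP42 reads in the 15 HUES66 libraries (median 51.0%), and a median of 0.223% for POU5F1, 2.27% for SALL4 and 8.89% for L1TD1. Counts of annotated reads therefore understate ZFP42.

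Most of the unannotated ZFP42 reads came from the acceptor 3 bases upstream of the annotated one, which adds the bases in capitals in the last exon above. It held 653 reads in wild-type HUES66 against 494 of the annotated acceptor, 56.9% of both. The share was 44.7% ± 3.02 (SD, n = 4) at 48 hr and 57.3% ± 3.25 at 96 hr. The 24 hr sets overlapped, at 52.5% to 57.2% in set 1 and 46.4% to 53.9% in set 2. ZFP42's extra exon also ended at another donor than annotated: the annotated intron 187999274 to 187999608 had 0 reads in every library, and the one starting 2 bases later held 1473 in all.

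L1TD1 and DPPA4 each showed 2 unannotated introns that flank an unannotated exon, of 111 and 89 bases. The downstream intron of the L1TD1 exon took 2.25% ± 0.276 (SD, n = 4) of the reads at its acceptor at 48 hr and 5.17% ± 0.577 at 96 hr. For the DPPA4 exon the share was 0.310% ± 0.177 at 48 hr (2 to 8 reads) and 1.91% ± 0.293 at 96 hr (22 to 30 reads). Both shares also differed between the 24 hr sets without overlap. The L1TD1 share was 5.32% to 6.67% in set 1 and 3.93% to 4.87% in set 2. The DPPA4 share was 1.19% to 1.99% in set 1 and 0.364% to 0.9% in set 2.

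Of the 10 introns, 9 share a splice site with an annotated intron and were tested one by one for 96 hr against 48 hr. In 7 of the 9 the 96 hr shares were all above the 48 hr shares, which gives an exact two-sided permutation p of 0.0286 (adjusted 0.0367 over 9 tests), the smallest that 4 against 4 libraries allow. All 7 were higher at 96 hr. Across all genes, under the same limit, 25.2% of 951 such introns did not overlap between the times, and 15.8% of the 951 were without overlap and higher at 96 hr. The members' introns come from only 3 genes and flank shared exons, so they are not independent of each other.

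**Figure D5:**
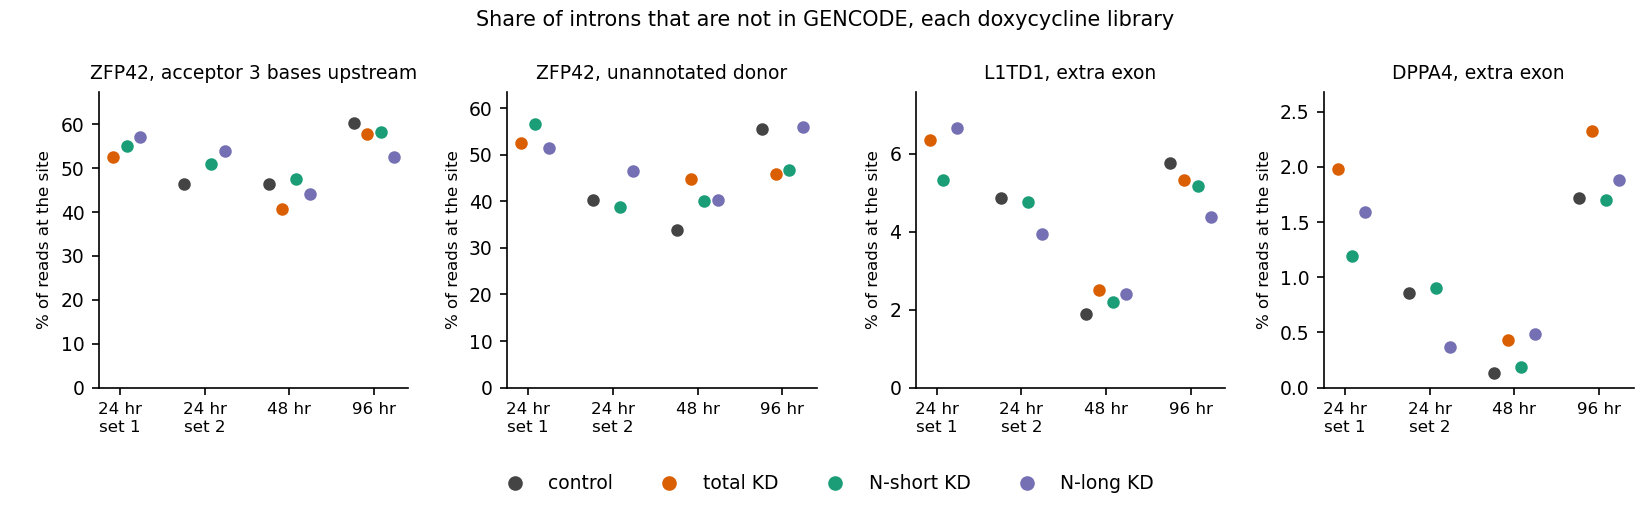
Percent of reads at the site that took an intron absent from GENCODE 29, in the 14 doxycycline libraries by set and coloured by knockdown, with axes from 0. The L1TD1 exon lies at 2.25% on average at 48 hr and at 5.17% at 96 hr.

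Genes whose levels ran most like those of 3 members were named over the 14 doxycycline libraries among 9768 genes with at least 5 CPM on average. They are a description, since the libraries fall into 4 sets and genes share library depth. For POU5F1 these were GJA1, a gap junction protein (Pearson r 0.936), TMSB4X, an actin-binding peptide (0.925), and UPF1, an RNA helicase (0.921). For NANOG they were CDH4, a cadherin (0.908), DYNLRB1, a dynein light chain (0.904), and MKRN1, a ubiquitin ligase (0.873). For LIN28A they were MED22, a Mediator subunit (0.974), DAPK3, a kinase (0.971), and NOTCH3, a receptor (0.970). After subtraction of each set's mean the r of GJA1 with POU5F1 was 0.90, that of TMSB4X 0.480 and that of UPF1 0.480.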

How the data were processed

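The authors deposited, per library, a table of raw counts of reads per splice junction; STAR 2.7.1, SAMtools 1.9 and hg38 are named in the submitters' processing notes, and the filters are not given in the sources used here. The authors also deposited 9 rMATS tables, from which the inclusion difference (a unit other than counts) and the p-value columns were used, per the file headers; 69 per-library columns were not used. The members and lists were chosen with earlier results of these data known.

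Introns were annotated with GENCODE 29. Annotated reads were 96.7% to 98.3% of each library, and reads of introns of 1 gene were summed (93.4% to 94.8%). Depth was 9622841 to 14625040 junction reads in the doxycycline libraries, 27937149 in wild-type HUES66, 9605334 in HEK293, and 8412005, 6499183 and 22344622 in A375 total, nuclear and cytoplasmic RNA. CPM is counts per 1000000 junction reads. edgeR 4.0.16 (R 4.3.3, TMM, filterByExpr, quasi-likelihood F-test) fitted all 14 doxycycline libraries with terms for library set and knockdown. For 96 hr against 48 hr it fitted the 8 libraries of these times with the knockdown as block. Splice choices were fitted with chosen and other reads as paired columns. DESeq2 1.42.0 and limma 3.58.1 (pseudocount 0.5) were alternatives. The library sets come from the labels; as a check, deviations from the knockdown means correlated at a median r of 0.545 within sets (18 pairs) and -0.170 between sets (55 pairs).

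On simulated data with 200 changed features, edgeR recovered 83.8% to 93.4% of genes with a log2 change of 1 and 39.5% to 68.5% of choices with a log2 odds change of 2, so smaller splice changes could be missed. In total KD 39.5% of the changed choices were recovered, among 23770 fitted. No change was simulated in choices with pooled shares as low as those of NANOG (3.51%), PRDM14 (2.90%) and DPPA4 (8.56% and 4.48%). The recovery therefore does not cover these member choices. Other parameters were an adjusted p threshold of 0.05, 95% intervals, and 3 counts as the limit allowed by a count of 0. All 10 members were named, with, from each list and contrast, up to 4 called genes of largest change. The rule also names the 3 genes of each list with most reads in wild-type HUES66: DNMT3B, TERF1 and JARID2 (1484, 724 and 471 CPM), STAT3, TFE3 and NR5A2 (191, 55.9 and 12.3), HMGA1, IGF2BP1 and DROSHA (1130, 588 and 299), VIM, NES and KRT7 (320.04, 33.4 and 3.15) and YBX1 and POU2F1 (1514 and 96.6); 1 other gene of the last list is not reported here. Unannotated introns with at least 200 reads were chosen after the data were seen. Scipy 1.17.1 ran the exact permutation tests.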

Additional observations from a re-analysis of the deposited data

Results flagged for a closer look

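PRDM14 in the 48 hr set stood apart in the N-short KD library, at 37.8 CPM where the other 3 libraries had 44.2 to 44.6. L1TD1 in the 96 hr set stood apart in the total KD library, at 225 CPM where the other 3 had 193 to 195. In both, the distance to the nearest library was over the 95% limit for 4 values among 36 groups tested; chance marks about 1 in 20, and the libraries of a set differ in knockdown.

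Reads outside the annotation were highest at 4 introns. The ZFP42 intron ending at the upstream acceptor held 4058 reads over the 19 libraries, and the ZFP42 intron from the unannotated donor 1473. An L1TD1 intron of 90 bases inside the last exon (62209945 to 62210034) held 1172 reads, of which 383 were in wild-type HUES66, 211 in N-short KD of 24 hr set 1, 200 in control and 143 in N-short KD of 24 hr set 2, and 230 in total KD at 96 hr. The other doxycycline libraries held 0 to 2, including libraries of the same sets. The intron downstream of the unannotated L1TD1 exon held 708. HEK293 had 0 reads at all 4.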

How the results depend on the processing

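Counts of members called stayed at 0 in N-short KD, with N-long KD and in the contrast of both under DESeq2, RLE factors, no filter on low counts, no replicate block, wild-type HUES66 added as control and each library left out in turn. In total KD the count became 1 with wild-type HUES66 as a control, and was 0 to 1 with 1 library left out (L1TD1, without total KD of 24 hr set 1). All genes called in total KD numbered 300, with 62 under no replicate block and 536 with the wild type added. For 96 hr against 48 hr the members called were 6, with 5 by DESeq2, 6 with no replicate block and 5 to 6 with 1 library left out. There SALL4 was called without control at 48 hr or at 96 hr (adjusted p 0.0234 and 0.0225 by edgeR), and LIN28B without N-long KD at 96 hr (0.049). Splice choices called for that contrast were 4, became 0 with limma (0 of all choices against 2884 by edgeR) and 4 to 5 with 1 library left out, where the first exon of DPPA4-204 was called without total KD at 48 hr or at 96 hr; why limma differs was not tested, and the cause was not tested for the other changes. In total KD limma called 15 choices in all, against 188. With no replicate block POU5F1 changed sign in total KD (0.0222) and N-short KD (0.0155), and the block changed no call of a member. With 1 library left out, POU5F1 ranged from -0.0919 to 0.0291 in total KD and from -0.0382 to 0.00523 in N-short KD, and NANOG from -0.0583 to 0.111 in N-short KD and from -0.0241 to 0.145 for N-long KD. Of 64 other member values, none of them called, 45 changed sign in at least 1 alternative and 0 changed call. The log2 ratio of LIN28B between HUES66 and HEK293 moved from 0.21 to 0.43 with TMM factors. Depth limits the choices with few reads: a doxycycline library has 49 to 98 reads at the LIN28B site and 11 to 53 at that of PRDM14.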
